A study of Mus musculus with 12 samples.

Results

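The 45 genes described here are the rows whose symbol begins with *Nduf*, chosen by that prefix among the 24062 rows of the brain and spleen expression tables. Of them, 36 encode subunits of mitochondrial complex I, 7 encode assembly factors that carry the *Nduf* name, and 2, *Ndufa4* and *Ndufa4l2*, keep the name although *Ndufa4* is now counted as a subunit of cytochrome c oxidase. Poly(A) RNA of *Norad*-/- and *Norad*+/+ mice was measured by stranded RNA-seq, with 3 libraries from each of 4 groups: *Norad*-/- brain, *Norad*+/+ brain, *Norad*-/- spleen and *Norad*+/+ spleen. All mice were 10-week-old C57BL/6 males. The *Norad*-/- mice lack the long noncoding RNA *Norad* in every cell and descend from independent founders edited with CRISPR/Cas9. The founder line of each mouse was not given in the labels, nor whether a brain and a spleen came from the same animal. Values are FPKM, read fragments scaled by transcript length and by the mapped reads of the library, so that levels can be compared between genes per length. The study asked whether loss of *Norad* alters genes of mitochondrial function, and the comparisons below ask this of complex I.

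Complex I, or NADH:ubiquinone oxidoreductase, is the entry point of electrons into the respiratory chain. It is shaped like a boot, with a matrix arm and a membrane arm. The N module at the tip of the matrix arm binds NADH and takes up its electrons, the Q module below it passes them through iron-sulfur clusters to ubiquinone, and the proximal and distal membrane arm pump protons. A small core is conserved from bacteria, the remaining supernumerary subunits surround it, and assembly factors help to build the complex without staying in it. Brain depends heavily on respiration, and defects of these genes in people often cause Leigh syndrome, a disease of the brain stem and basal ganglia. *Norad* binds PUMILIO proteins, which repress mRNAs that carry PUMILIO response elements, so the elements in the *Nduf* transcripts were looked for as well.

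By role, the 45 genes comprised 10 of the N module, 6 of the Q module, 9 of the proximal and 10 of the distal membrane arm, the acyl carrier protein gene *Ndufab1*, 7 assembly factors and the *Ndufa4* pair. The 7 core subunits encoded in the nucleus were all present. None of the 7 subunits encoded by mitochondrial DNA had a row, so the data cover only the nuclear part of the complex. *Ndufb1* and *Ndufaf8* had none either and were not analysed here. All 45 symbols matched a protein-coding gene of GENCODE M21 on GRCm38. Every gene had a mean of at least 1 FPKM in each tissue, none was at 0 in any library, and all 45 therefore entered every test.

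In the labels' check, the targeted gene (*2900097C17Rik*, the row of *Norad*) had between 0 and 0.0121 FPKM in the 3 *Norad*-/- brains, against 206, 259 and 635 FPKM in the *Norad*+/+ brains, and between 0 and 0.0173 FPKM in the *Norad*-/- spleens, against 62.0, 42.9 and 56.3 FPKM in the *Norad*+/+ spleens. The summed level of 7 neuronal markers was at least 1826 FPKM in every brain library and at most 18.6 FPKM in every spleen library, and that of 5 B cell markers was at least 1215 FPKM in every spleen library and at most 3.74 FPKM in every brain library. Depth, estimated from the FPKM worth of 1 read, lay between 28.4 and 36.7 M reads, with the lowest value in *Norad*+/+ brain library 3. Both *Norad*+/+ libraries numbered 3 stood apart for the *Nduf* genes, and not for these alone. Over all genes, their median Spearman's rho with the other libraries of the tissue was the lowest. It was 0.980 in brain, against at least 0.984 for the other brains, and 0.972 in spleen, against at least 0.977 for the other spleens. *Norad*+/+ brain library 3 was the highest of the 6 brain libraries for 22 of the 45 genes and the lowest for 12. *Norad*+/+ spleen library 3 was the highest of 6 for 39 of 45, on average 0.35 above the gene's mean on the log2 scale. It also stood apart in exocrine pancreas RNA, the summed level of 5 markers being 323 FPKM there and at most 0.331 FPKM in the other spleen libraries, where 1 or 2 of the 5 were at 0. The main counts and medians over all 45 genes between genotypes are therefore given with and without these libraries. Values by module, of the other gene lists and of some single genes are given with them only.

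**Figure D1:**
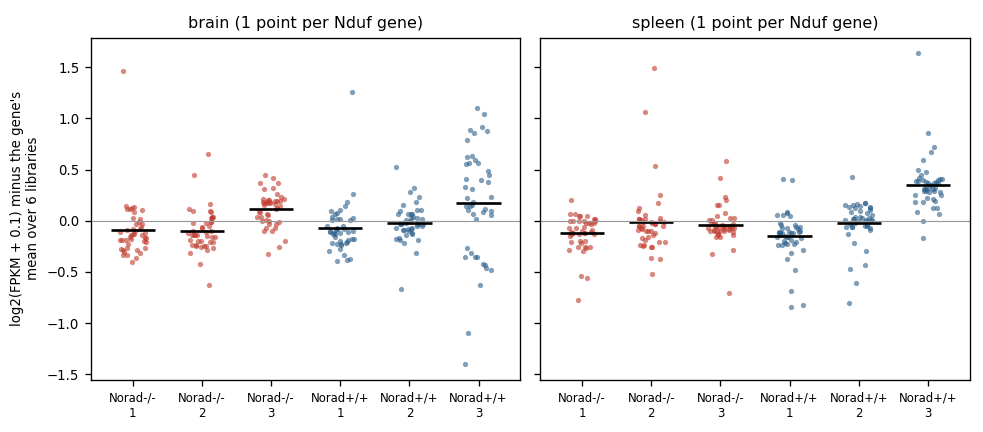
Deviation of each of the 45 Nduf genes from its own mean over the 6 libraries of a tissue, on the log2(FPKM + 0.1) scale, by library (1 point per gene, black bar = mean of the 45 genes). Norad+/+ brain library 3 spreads widely in both directions (SD 0.546) and Norad+/+ spleen library 3 lies above the others (mean 0.35).

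The PUMILIO response element, TGTANATA in DNA letters, was rare in these genes. In the longest annotated 3′ UTR it was present in 3 of 45 genes (6.67%), against 24.0% of the 19297 rows with a 3′ UTR in GENCODE M21. Their 3′ UTRs were also shorter, with a median of 298 bases against 1132 bases over all rows. The shares are per gene and not corrected for this length, so they do not show that the element is rarer per base. *Ndufs7*, the gene with the smallest p between genotypes in brain, has a 3′ UTR of 60 bases without the element. The study nevertheless lists a site there bound by the PUMILIO protein PUM2 in brain, measured by crosslinking and immunoprecipitation. Absence of these letters is thus not absence of binding. The relaxed form TGTANAT was present in 7 of the 45 genes (15.6%) and in 44.4% of all rows. The 4 elements are shown because they are all that the search of these 3′ UTRs found; this choice was made after the values were seen. Each lies in 30 bases of GRCm38 read on the gene's strand, with the element in capitals. Those of *Ndufb2* begin at bases 1828 and 3114 of a 3′ UTR of 4012 bases. Whether the longest annotated 3′ UTR of a gene is the one made in these tissues was not tested.

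*Ndufaf4* (chr4:24903443-24903450, plus strand): tggctagcagaTGTAAATAtggtttcttaa

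*Ndufb2*, first element (chr6:39601198-39601205, plus strand): ttctacttggtTGTATATAtagcacatgag

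*Ndufb2*, second element (chr6:39602484-39602491, plus strand): ggaagccagttTGTAAATAcaggataattt

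*Ndufs3* (chr2:90894653-90894660, minus strand): ctaaggttgtcTGTAAATAaactccaatgg

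Promoters of 39 of the 45 genes were available from RefSeq (GRCm38.p6, 250 bases before to 50 bases after the start), and 4 motifs bound by known regulators of respiratory genes were searched on both strands. The motif bound by YY1 (the capitals in the first 4 lines that follow) was present in 4 of 39 genes (10.3%), against 0.755% of all genes with a promoter in the table, and the palindrome bound by NRF1 (the capitals in the last 3 lines) in 3 of 39 (7.69%), against 1.07%. CCGGAAGT, bound by GABP, was present in *Ndufs3* alone (2.56%, against 4.31% of all genes), and TCAAGGTCA, bound by the ERR receptors, in none (against 0.466%). The YY1 motif began between 24 and 35 bases after the start in all 4 genes, which encode 2 subunits of the N module and 2 of the Q module, and the NRF1 motif was in 2 assembly factors and a subunit of the proximal arm. The YY1 motif holds the letters ATG, and whether these are the start of translation was not tested. The windows are shown with the motif in capitals, on the strand of the gene. A match is a description of the letters and not a measured binding site.

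*Ndufs7*, YY1 (chr10:80249464-80249492, plus strand): gccgaggccAAGATGGCGGCgctggcggg

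*Ndufa9*, YY1 (chr6:126849096-126849124, minus strand): ttgtgggagAAGATGGCGGCcgccgtccg

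*Ndufs4*, YY1 (chr13:114388045-114388068, minus strand): gcctacaggAAGATGGCGGCggtc

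*Ndufs6*, YY1 (chr13:73328433-73328458, minus strand): gtcaccggcAAGATGGCGGCggtgct

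*Ndufaf5*, NRF1 (chr2:140170652-140170681, plus strand): agtcccgttgGCGCATGCGCctaatagaaa

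*Ndufaf4*, NRF1 (chr4:24897960-24897989, plus strand): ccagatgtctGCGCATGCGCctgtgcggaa

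*Ndufa11*, NRF1 (chr17:56717692-56717721, plus strand): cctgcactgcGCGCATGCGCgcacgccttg

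The *Nduf* genes were abundant but far from equal in level. Together they took between 0.748% and 0.888% of all FPKM in brain and between 0.463% and 0.541% in spleen, with a median gene at 41.9 FPKM in brain and 27.1 FPKM in spleen over the 6 libraries of each tissue. The order of the genes was alike in both tissues (Spearman's rho 0.938 across the 45 genes, which share libraries and annotation). The highest in brain were *Ndufa4* (mean 185 FPKM), the distal arm subunit *Ndufb10* (152 FPKM), the N module subunit *Ndufa6* (121 FPKM), and *Ndufa1* and *Ndufa3* of the proximal arm (105 and 98.6 FPKM). The same 5 genes led in spleen, where *Ndufa3* (97.4 FPKM), *Ndufb10* (95.3 FPKM), *Ndufa4* (94.9 FPKM), *Ndufa6* (94.4 FPKM) and *Ndufa1* (87.1 FPKM) were close together. The ranges of neighbours in this order overlapped over the 6 libraries in both tissues, so the order was not resolved.

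At the low end stood *Ndufab1*, the mitochondrial acyl carrier protein, with a mean of 1.5 FPKM in brain and 2.48 FPKM in spleen. Only uniquely mapped reads were kept, and *Ndufab1* shared 371 of its 3405 stretches of 75 bases, the read length, with *Gm4459* or *Ndufab1-ps*. The level of *Ndufab1* is therefore uncertain. It was the lowest of all in brain and, with *Ndufaf5* at 1.57 FPKM, among the lowest in spleen. *Ndufa4l2*, a paralog of *Ndufa4* known to be induced by hypoxia, had 2.83 FPKM in brain and 2.71 FPKM in spleen, and the assembly factor *Ndufaf6* had 4.69 and 3.44 FPKM. *Ndufb4*, a distal arm subunit that shared 35.2% of such stretches with other genes, had 5.94 and 4.22 FPKM. These were the genes nearest to the filter of 1 FPKM, and none fell below it. The 7 assembly factors all stayed at or below the level of *Ndufaf2* (35.0 FPKM in brain and 14.7 FPKM in spleen), while the 7 core subunits lay between 19.5 FPKM (*Ndufs3*) and 73.3 FPKM (*Ndufv2*) in brain.

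**Figure D2:**
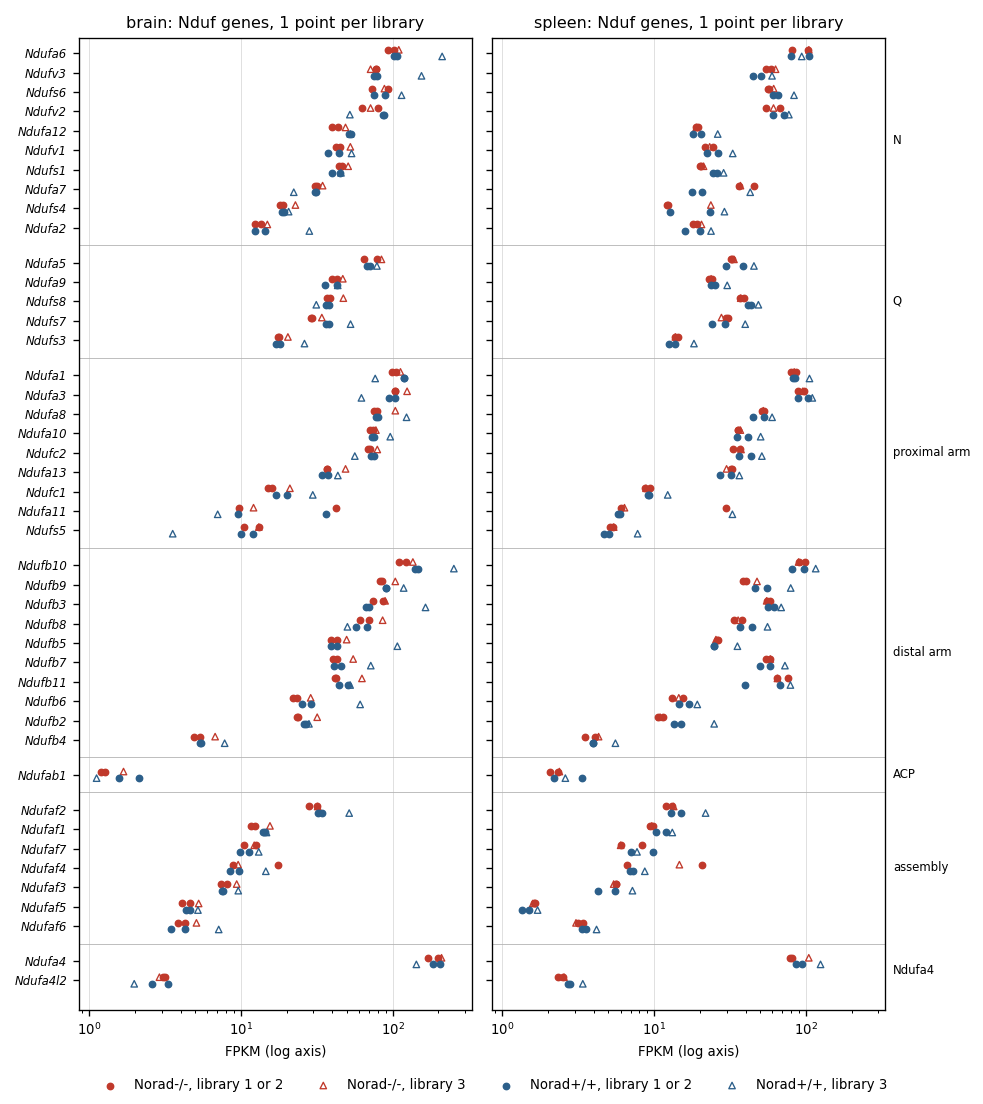
FPKM (log axis) of 44 Nduf genes in brain (left) and spleen (right), 1 point per library, grouped by module (ACP is the acyl carrier protein). Most Norad-/- and Norad+/+ points lie on top of each other, and the Norad+/+ library 3 (open triangles) is often the outermost point.

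In brain, no *Nduf* gene passed the threshold between *Norad*-/- and *Norad*+/+ mice. None of the 45 had an adjusted p below 0.05 (limma, Benjamini-Hochberg over 13051 genes, smallest value 0.718), against 0.0153% of all genes tested. At an unadjusted p below 0.05 there was 1 of 45, against 6.62% of all genes. The log2 fold changes ran between -0.53 and 0.68 with a median of -0.05, beside 0.02 for all genes, and 26 of 45 were below 0 (44.9% of all genes). Without *Norad*+/+ library 3 the median was 0.05, 17 of 45 were below 0, 17 changed sign, and again none passed. The 95% interval of a gene reached, at the median, 0.45 to either side of its estimate, and it held 0 for 44 of 45 genes.

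*Ndufs7*, the core subunit that carries the last iron-sulfur cluster before ubiquinone, had the smallest p in brain. It had 29.4, 28.8 and 34.1 FPKM in the *Norad*-/- brains, against 36.2, 38.2 and 52.7 FPKM in the *Norad*+/+ brains. All *Norad*-/- libraries lay below all *Norad*+/+ libraries, of which library 3 was the highest. The difference on the log2 scale was -0.44 (standard error 0.17, limma adjusted p = 0.718), and -0.28 without *Norad*+/+ library 3 (adjusted p = 0.449). In spleen *Ndufs7* had 30.9, 29.7 and 27.7 FPKM in the *Norad*-/- mice, against 24.0, 29.5 and 39.8 FPKM in the *Norad*+/+ mice. The groups overlapped, and the difference of -0.05 (standard error 0.18, adjusted p = 0.903) turned to 0.07 on the TPM scale, to 0.01 with quantile normalization and to 0.14 without *Norad*+/+ library 3.

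For 3 other genes the *Norad*-/- brains lay wholly below the *Norad*+/+ brains, which makes 4 of 45, or 8.89%, against 6.56% of all genes tested in that direction. *Ndufa12*, an N module subunit, had 39.6, 43.3 and 48.9 FPKM in the *Norad*-/- brains, against 52.8, 51.2 and 52.7 FPKM in the *Norad*+/+ brains (log2 fold change -0.26, standard error 0.11, adjusted p = 0.718). The gap was small but did not rest on library 3, since the value was -0.25 without it. *Ndufb10* had 110, 122.8 and 136 FPKM in the *Norad*-/- brains, against 147, 141 and 253 FPKM in the *Norad*+/+ brains (-0.51, standard error 0.24, adjusted p = 0.718). Here *Norad*+/+ library 3 was far above the other brains, and the value without it was -0.24. *Ndufaf2*, an assembly factor related to *Ndufa12* that helps to add the N module, had 28.0, 31.5 and 32.0 FPKM in the *Norad*-/- brains, against 32.3, 34.4 and 51.7 FPKM in the *Norad*+/+ brains (-0.34, and -0.13 without library 3). No *Nduf* gene had its *Norad*-/- brains wholly above the *Norad*+/+ brains, against 10.6% of all genes tested.

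The other genes with the smallest p in brain overlapped between genotypes. Below 0 were the distal arm subunit *Ndufb6* (-0.53), the N module subunits *Ndufa6* (-0.39) and *Ndufv3* (-0.37), and *Ndufc1* of the proximal arm (-0.34). Their values shrank to -0.14, -0.05, -0.03 and -0.11 without *Norad*+/+ library 3, where *Ndufa6* had 212 FPKM against 107 and 102 FPKM in the other *Norad*+/+ brains. Above 0 were *Ndufa3* (0.38), *Ndufb8* (0.30), *Ndufs5* (0.68), the core subunit *Ndufs8* (0.20), *Ndufa7* (0.22), *Ndufa4l2* (0.24), *Ndufs1* (0.11) and *Ndufa4* (0.14). Without *Norad*+/+ library 3 these were 0.15 for *Ndufa3*, 0.20 for *Ndufb8*, 0.14 for *Ndufs5*, 0.12 for *Ndufs8*, 0.06 for *Ndufa7*, 0.06 for *Ndufa4l2* and 0.15 for *Ndufs1*. *Ndufa4* had 198, 171 and 210 FPKM in the *Norad*-/- brains, against 184, 203 and 143 FPKM in the *Norad*+/+ brains. Its sign turned, to -0.01, without *Norad*+/+ library 3. Beside these values, the summed level of 5 pituitary hormone genes was 1333 FPKM in *Norad*-/- brain library 3 and at most 1.44 FPKM in the other 5 brains. That library was also the highest of 6 for 16 *Nduf* genes, and the part of pituitary RNA in this was not tested.

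In spleen, again no *Nduf* gene passed the threshold, though most lay slightly lower in *Norad*-/- mice. None of 45 had an adjusted p below 0.05 (limma, 12397 genes, smallest value 0.157), against 0.0323% of all genes, and 4 of 45 (8.89%) had an unadjusted p below 0.05, against 21% of all genes. The log2 fold changes ran between -0.64 and 0.72. Their median was -0.16, beside -0.02 for all genes, and 37 of 45 were below 0, against 53.8% of all genes. The count below 0 was 25 of 45 on the TPM scale, 29 with quantiles made equal and 26 once the tissue was fitted without *Norad*+/+ library 3. Rescaling to TPM moved the median of all genes to 0.10, and relative to all genes the *Nduf* median was -0.13 with and without it. Without *Norad*+/+ library 3 it was -0.04 relative to all genes.

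*Ndufs1*, the largest core subunit and a carrier of iron-sulfur clusters in the N module, had the smallest p in spleen. It had 20.2, 19.99 and 21.1 FPKM in the *Norad*-/- spleens, against 24.4, 25.8 and 28.7 FPKM in the *Norad*+/+ spleens. The *Norad*-/- libraries lay close together and below every *Norad*+/+ library. The log2 fold change was -0.36 (standard error 0.09, adjusted p = 0.157), and -0.29 without *Norad*+/+ library 3 (adjusted p = 0.302). In brain *Ndufs1* had 44.0, 46.1 and 50.9 FPKM in the *Norad*-/- mice, against 39.7, 44.9 and 45.6 FPKM in the *Norad*+/+ mice, with groups that overlapped.

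For 4 more genes the *Norad*-/- spleens lay wholly below the *Norad*+/+ spleens, in all 5 of 45 or 11.1%, against 14.9% of all genes tested. *Ndufb2*, a distal arm subunit, had 11.4, 10.6 and 10.9 FPKM in the *Norad*-/- spleens, against 13.5, 14.96 and 24.8 FPKM in the *Norad*+/+ spleens. It has 2 PUMILIO response elements in its longest annotated 3′ UTR, as shown above, and their part in this was not tested. Its log2 fold change was -0.64 (standard error 0.23, adjusted p = 0.203), and -0.37 without *Norad*+/+ library 3. In brain its value was -0.04. *Ndufaf1*, a factor in the assembly of the proximal membrane arm, had 9.81, 9.34 and 9.65 FPKM in the *Norad*-/- spleens, against 10.3, 12.01 and 13.2 FPKM in the *Norad*+/+ spleens (-0.29, adjusted p = 0.208). *Ndufs8*, a core subunit of the Q module, had 39.3, 36.7 and 37.2 FPKM in the *Norad*-/- spleens, against 43.4, 41.7 and 48.6 FPKM in the *Norad*+/+ spleens (-0.24, adjusted p = 0.208), and *Ndufa4l2* differed by -0.25 (adjusted p = 0.299). No *Nduf* gene had its *Norad*-/- spleens wholly above the *Norad*+/+ spleens, against 11.6% of all genes tested.

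Among genes with overlapping groups, *Ndufb9* (-0.49), *Ndufb8* (-0.33) and *Ndufc2* (-0.28) had the next smallest p below 0, with values of -0.27, -0.17 and -0.16 without *Norad*+/+ library 3. Only 8 genes lay above 0, namely *Ndufaf4* (0.72), *Ndufa7* (0.65), *Ndufb11* (0.20), *Ndufv3* (0.19), *Ndufaf5* (0.08), *Ndufa6* (0.04), *Ndufa11* (0.01) and *Ndufaf3* (0.002). None had an adjusted p below 0.306. The 2 other genes with a PUMILIO response element gave 0.72 (*Ndufaf4*) and -0.07 (*Ndufs3*) in spleen, and 0.10 and -0.11 in brain. Without *Norad*+/+ library 3 the values of *Ndufs3* turned to 0.09 in spleen and 0.08 in brain.

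The spleens also differed in the summed RNA of cell type markers, though no gene of the lists below passed the threshold between genotypes (limma). The unadjusted p (limma) was below 0.05 for 13 of 14 red cell precursor, 3 of 9 neutrophil, 7 of 8 dividing cell and 6 of 6 T cell markers. Of all genes tested it was below 0.05 for 21%. The summed level of 14 markers of red cell precursors was 83.0, 69.2 and 1006 FPKM in the *Norad*-/- spleens, against 752, 1859 and 2512 FPKM in the *Norad*+/+ spleens, with all 14 lower in *Norad*-/- mice on average and none at 0. That of 9 neutrophil markers was 289, 168 and 1535 FPKM in the *Norad*-/- spleens, against 869, 2490 and 1919 FPKM in the *Norad*+/+ spleens, that of 8 markers of dividing cells was 61.7, 58.6 and 203 FPKM in the *Norad*-/- spleens, against 150, 328 and 411 FPKM in the *Norad*+/+ spleens, with all 8 lower, and 6 T cell markers summed to between 349 and 420 FPKM in the *Norad*-/- spleens, against between 237 and 282 FPKM in the *Norad*+/+ spleens. *Norad*+/+ library 3, in which 39 *Nduf* genes peaked, held the most red cell precursor RNA, and its 5 liver markers summed to 87.0 FPKM, against at most 0.492 FPKM in the other spleens. Their part in the *Nduf* values was not tested. In bulk tissue, fewer cells of a type and less RNA per cell cannot be told apart.

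**Figure D3:**
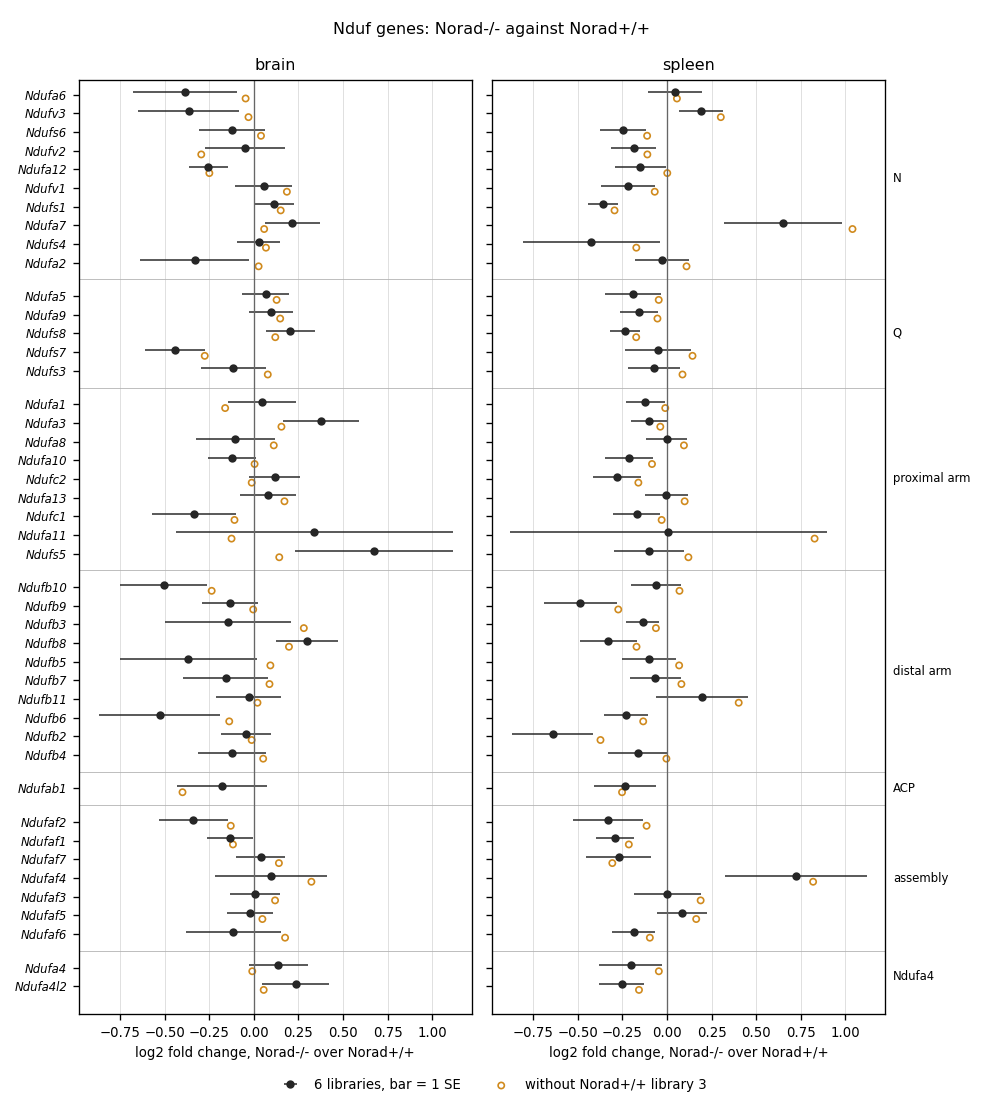
Log2 fold change of 44 Nduf genes, Norad-/- over Norad+/+, in brain (left) and spleen (right), from all 6 libraries of the tissue (filled, bar = 1 standard error) and without Norad+/+ library 3 (open). No gene passed an adjusted p of 0.05 in either tissue, and in spleen most open points lie nearer to 0 than the filled ones.

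By module the genotype differences were small in both tissues and no module held a called gene. In brain the medians were -0.08 for the N module, -0.02 for the Q module, 0.08 for the proximal and -0.14 for the distal membrane arm, and -0.02 for the assembly factors, beside 0.02 for all genes. In spleen they were -0.17, -0.11, -0.10, -0.15 and -0.19 in the same order, beside -0.02 for all genes. All 7 core subunits were below 0 in spleen (median -0.19), against 4 of 7 in brain (median -0.05).

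Whether the genotype difference itself differed between tissues was tested with an interaction term over all 12 libraries. None of 45 *Nduf* genes passed (limma, 10481 genes, smallest adjusted p 0.236), against 0.0191% of all genes, and 3 had an unadjusted p below 0.05, against 14.3% of all genes. The smallest p belonged to *Ndufs1*, whose fold change was higher in brain than in spleen by 0.47 on the log2 scale (standard error 0.14), and the next to *Ndufs8* (0.44) and *Ndufb8* (0.63). Of the 45 genes, 22 were below 0 in both tissues and 4 above 0 in both.

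Brain against spleen gave clear differences. Among the *Norad*+/+ libraries 20 of 45 *Nduf* genes (44.4%) were higher in brain, against 35.4% of all genes tested, and 1 (2.22%) was lower, against 43.6% (limma, 14216 genes). The brain libraries lay wholly above the spleen libraries for 22 (36.9% of all genes) and wholly below for 2 (45.4% of all genes). The median log2 fold change was 0.49, while that of all genes was -0.24, a distance of 0.72 that stayed at 0.73 after rescaling to TPM. The genes higher in brain came from every group except the acyl carrier protein, *Ndufab1*. They were 4 of 10 in the N module (*Ndufa12*, *Ndufs1*, *Ndufv1* and *Ndufv3*) and 3 of 6 in the Q module (among them *Ndufa5* and *Ndufa9*). They were also 4 of 9 in the proximal arm (*Ndufa8*, *Ndufa10*, *Ndufc1* and *Ndufc2*) and 4 of 10 in the distal arm (*Ndufb2*, *Ndufb6*, *Ndufb9* and *Ndufb10*). The rest were 4 of 7 assembly factors (*Ndufaf2*, *Ndufaf3*, *Ndufaf5* and *Ndufaf7*) and *Ndufa4*. The count rested on few libraries. It was 12 without *Norad*+/+ spleen library 1, 11 without *Norad*+/+ spleen library 2 and 31 without both libraries numbered 3, an alternative chosen after seeing the data, which retained 19 of the 20.

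The largest difference past the threshold was that of *Ndufaf5*, an assembly factor that in human cells hydroxylates an arginine of NDUFS7. It had 4.36, 4.60 and 5.21 FPKM in the *Norad*+/+ brains, against 1.35, 1.51 and 1.71 FPKM in the *Norad*+/+ spleens. The ranges were far apart, and brain was higher by 1.58 on the log2 scale (standard error 0.15, adjusted p = 6.89e-05). *Ndufa12* followed, with 52.8, 51.2 and 52.7 FPKM in the *Norad*+/+ brains, against 17.99, 20.2 and 26.2 FPKM in the *Norad*+/+ spleens (1.30, adjusted p = 0.000268). Its partner in assembly, *Ndufaf2*, differed by 1.25. Next among the genes past the threshold were *Ndufc1* (1.09), *Ndufb6* (1.07), *Ndufa5* (0.96), *Ndufa10* (0.94), a membrane arm subunit related to nucleoside kinases, *Ndufv3* (0.92), *Ndufb10* (0.85), *Ndufa8* (0.81), *Ndufa4* (0.80) and *Ndufb9* (0.74). *Ndufb6*, *Ndufv3*, *Ndufb10* and *Ndufb9* no longer passed when 1 *Norad*+/+ spleen library, number 1 or 2, was left out (adjusted p between 0.0567 and 0.084), and *Ndufb9* did not pass without *Norad*+/+ brain library 3 either (0.0595).

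*Ndufab1* alone was lower in *Norad*+/+ brain. It had 1.57, 2.14 and 1.12 FPKM in the *Norad*+/+ brains, against 2.19, 3.32 and 2.60 FPKM in the *Norad*+/+ spleens. The log2 fold change was -0.74 (standard error 0.27, adjusted p = 0.0405). The call was lost after rescaling to TPM (adjusted p = 0.127) and without *Norad*+/+ brain library 1 or 3 or *Norad*+/+ spleen library 2 or 3 (between 0.0749 and 0.125). The level of *Ndufab1* is also uncertain, since part of its sequence is shared with other genes.

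The *Norad*-/- libraries repeated the contrast on mice that the first fit had not used. There 32 of 45 *Nduf* genes (71.1%) were higher in brain, against 39.9% of all genes, and 5 (11.1%) were lower, against 45.9%. All 20 genes called higher among the *Norad*+/+ libraries were among the 32, and *Ndufab1* was again lower (-0.68, adjusted p = 0.00448). *Ndufaf5* had 4.09, 4.63 and 5.27 FPKM in the *Norad*-/- brains, against 1.61, 1.63 and 1.59 FPKM in the *Norad*-/- spleens (1.47). Of all 45 genes, 39 had the same sign in both genotypes. The other 4 lower genes were *Ndufa2* (-0.50), *Ndufb11* (-0.51), *Ndufb7* (-0.31) and *Ndufa7* (-0.29). The 12 genes called higher among the *Norad*-/- libraries only were not shown to differ between genotypes, since the interaction test passed for none. For the *Nduf* genes the libraries of a group lay closer together in *Norad*-/- mice. The highest of 3 was, at the median gene, 1.26 times the lowest in *Norad*-/- brain, against 1.52 times in *Norad*+/+ brain. In spleen it was 1.10 times in *Norad*-/- mice, against 1.41 times in *Norad*+/+ mice. Among the *Norad*+/+ libraries, number 3 was the highest for 32 genes and the lowest for 12 in brain, and the highest for 42 in spleen. Over abundant genes, the log2 ratio of *Norad*+/+ libraries 1 and 2 had an SD of 0.319 in brain and 0.370 in spleen. Between *Norad*-/- libraries this SD was 0.291 to 0.338 in brain and 0.265 to 0.532 in spleen.

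**Figure D4:**
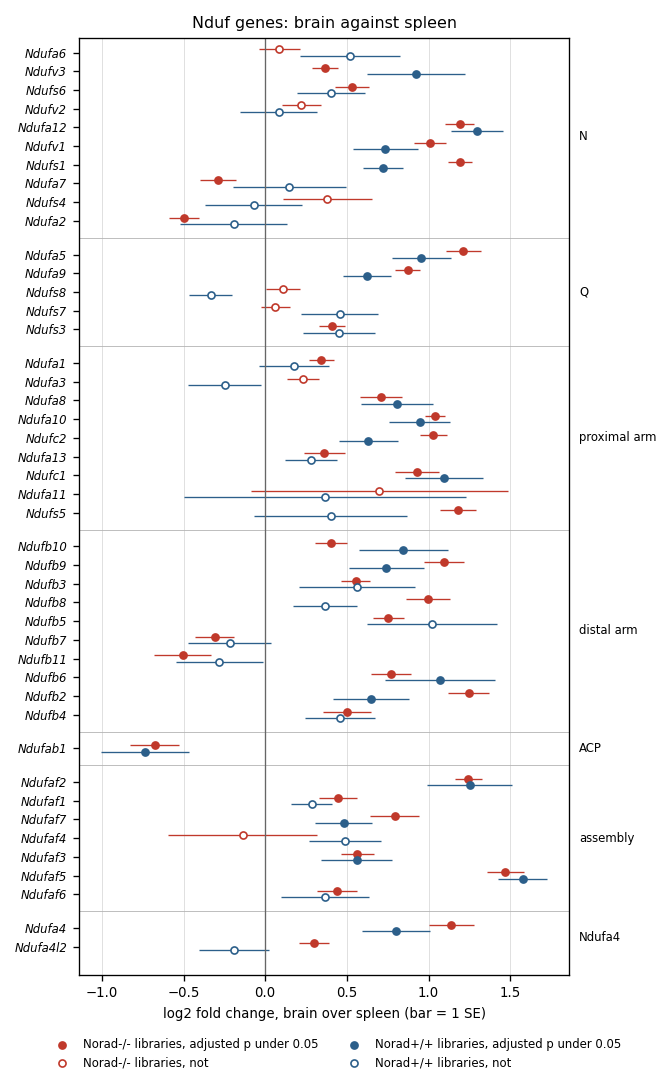
Log2 fold change of 44 Nduf genes, brain over spleen, among the 3 + 3 Norad-/- libraries and the 3 + 3 Norad+/+ libraries (filled = adjusted p below 0.05, bar = 1 standard error). Ndufaf5 and Ndufa12 lie far to the right in both genotypes.

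Some *Nduf* genes took different levels in libraries of 1 group. In brain the highest of 6 libraries was over 2 times the lowest for 11 of 45 genes, and in spleen for 6. Within a group, the highest was over 1.5 times the lowest for 2 genes in *Norad*-/- brain, against 23 in *Norad*+/+ brain, and for 3 genes in *Norad*-/- spleen, against 13 in *Norad*+/+ spleen. The *Norad*+/+ counts include the libraries numbered 3, which were the outermost of their group for most genes. *Ndufa11*, a proximal arm subunit, had 42.0, 9.78 and 12.1 FPKM in the *Norad*-/- brains, against 36.3, 9.53 and 7.03 FPKM in the *Norad*+/+ brains. In spleen it had 6.08, 29.6 and 6.37 FPKM in the *Norad*-/- mice, against 5.79, 5.94 and 32.8 FPKM in the *Norad*+/+ mice. Thus 1 library of each group stood several times above the remaining ones, and the standard errors of the log2 fold changes were 0.78 in brain and 0.89 in spleen. *Ndufaf4*, an assembly factor of the Q module, had 6.59, 20.5 and 14.7 FPKM in the *Norad*-/- spleens, against 6.96, 7.22 and 8.67 FPKM in the *Norad*+/+ spleens, and 8.90, 17.4 and 9.58 FPKM in the *Norad*-/- brains, against 8.48, 9.78 and 14.6 FPKM in the *Norad*+/+ brains. Its value in spleen was carried by *Norad*-/- libraries 2 and 3.

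*Ndufs4*, an N module subunit mutated in Leigh syndrome, had 12.1, 12.3 and 23.6 FPKM in the *Norad*-/- spleens, against 23.2, 12.7 and 29.0 FPKM in the *Norad*+/+ spleens, while in brain all 6 libraries lay between 17.99 and 22.9 FPKM. *Ndufa7* had 36.2, 45.7 and 37.0 FPKM in the *Norad*-/- spleens, against 17.7, 20.6 and 42.9 FPKM in the *Norad*+/+ spleens, so that its 0.65 rested on *Norad*+/+ libraries 1 and 2. In *Norad*+/+ brain library 3, *Ndufs5* had 3.55 FPKM, against between 10.1 and 13.1 FPKM in the other brains. *Ndufs5* shared 24.1% of its 75-base stretches, the read length, with the gene *BC002163*, whose FPKM kept a constant ratio of 1.05 to it in all 12 libraries, so the tables do not separate these 2 genes. Of the 45 genes 14 shared at least 1 such stretch with another gene. Besides *Ndufs5*, the largest shares were 35.2% in *Ndufb4*, 27.1% in *Ndufs3* and 20.3% in *Ndufb9*. *Ndufa12*, with 11.8%, and *Ndufab1*, with 10.9%, are also among the 14. The levels of these genes are uncertain. The share, counted in 1 transcript per gene, does not measure by how much, since *Ndufs5* with 24.1% was not separated at all.

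**Figure D5:**
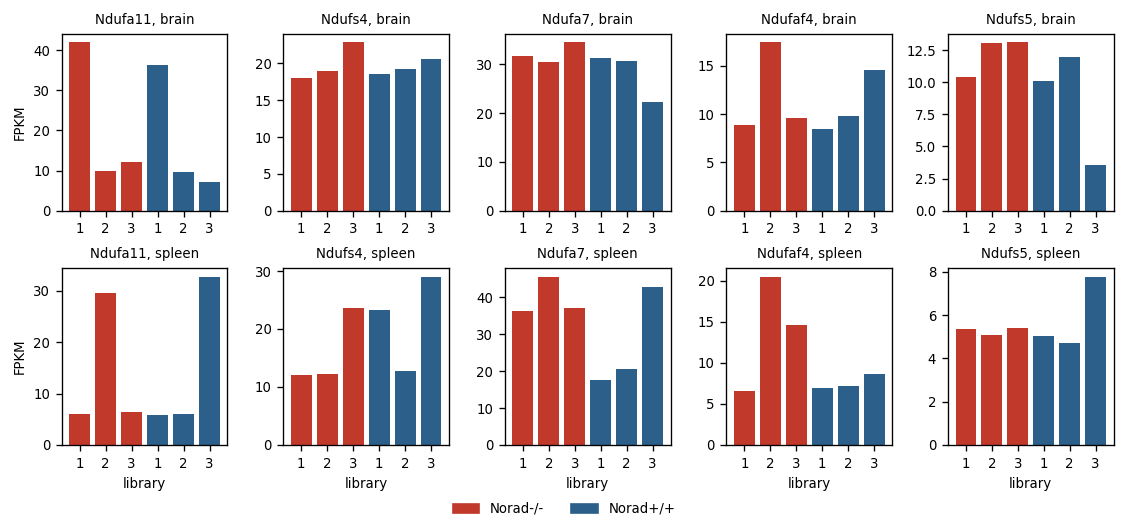
FPKM of Ndufa11, Ndufs4, Ndufa7, Ndufaf4 and Ndufs5 in each library of brain (top) and spleen (bottom), Norad-/- libraries 1 to 3 left of Norad+/+ libraries 1 to 3. Ndufa11 is high in 1 library of each group, for example 42.0 FPKM in Norad-/- brain library 1.

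The neighbours of complex I in the respiratory chain gave no called gene between genotypes either. An unadjusted p below 0.05 (limma) was found for 3 in brain and 3 in spleen, beside 6.62% and 21% of all genes. In spleen the medians were -0.16 for 4 subunits of complex II, -0.27 for 9 of complex III, -0.26 for 10 of complex IV and -0.21 for 15 of complex V, beside -0.16 for the *Nduf* genes and -0.02 for all genes. In brain they were 0.01, 0.04, -0.02 and -0.05, beside -0.05 for the *Nduf* genes. All these medians include *Norad*+/+ library 3 of the tissue and are not given without it. The smallest p values belonged to *Cox5b* of complex IV (-0.77, adjusted p = 0.623) and *Atp5g3* of complex V (-0.75, adjusted p = 0.623) in brain. Of 14 tested complex I assembly factors with other names, *Aifm1* (-0.55, adjusted p = 0.152) and *Chchd4* (-0.36, adjusted p = 0.18), which act together in import of proteins into the intermembrane space, had the smallest p in spleen, and the list had a median of -0.01. Among the regulators of respiratory genes none of 10 tested passed in brain and none of 9 in spleen.

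Between tissues the same lists are given by their counts beside all genes, of which 35.4% were higher and 43.6% lower in *Norad*+/+ brain; none was tested against the *Nduf* genes. Of complex II 1 of 4 subunits was higher and 1 lower (median 0.36), of complex III 1 of 9 was higher and 0 lower (0.14), of complex IV 3 of 10 were higher and 1 lower (0.65), and of complex V 3 of 14 were higher and 0 lower (0.29). Of the 14 other assembly factors 2 were higher and 6 lower (-0.14). *Sfxn4* (1.31), a sideroflexin of mitochondria, was the one with the smallest p, followed by *Foxred1* (-0.79). Of 11 regulators 3 were higher and 7 lower. *Ppargc1a*, a coactivator of mitochondrial biogenesis, had 14.8, 16.2 and 17.7 FPKM in the *Norad*+/+ brains, against 0.70, 0.50 and 0.50 FPKM in the *Norad*+/+ spleens (4.62, adjusted p = 1.17e-06). *Nrf1*, whose motif is shown above, had 0.94, 1.017 and 0.91 FPKM in the *Norad*+/+ brains, against 11.9, 13.3 and 16.2 FPKM in the *Norad*+/+ spleens (-3.71, adjusted p = 1.71e-06).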

How the data were processed

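RNA from brains and spleens (3 mice per genotype) was sequenced by the authors as stranded poly(A) libraries of 75-base single reads. Per the study's methods, reads with low quality scores (Phred under 20) were removed, the rest aligned to GRCm38 with TopHat2 2.0.12, and uniquely mapped reads kept. The deposited FPKM values were made by the authors with StringTie 1.2.2, scaled within each library. FPKM are not counts, so tests used limma 3.58.1 (R 4.3.3) on log2(FPKM + 0.1) with a variance trend, two-sided, over all genes averaging 1 FPKM or more, and Benjamini-Hochberg adjustment at 0.05. Fold changes on this scale understate the change of low genes. Each tissue was fitted alone, brain against spleen within each genotype, and the interaction over 12 libraries. The tests treat brain and spleen libraries as independent, and p-values measure the spread between 3 libraries per group. The genes named were all *Nduf* genes past the threshold between tissues, up to 12 by size with their values, the 8 smallest p in each direction between genotypes, the 5 highest and 5 lowest levels, *Ndufs7*, and up to 3 genes by p from other lists. One of these genes was counted but is not reported here by name or drawn. Genes with uneven levels were chosen after their values were seen. The gene set and lists were chosen with earlier results of these data known. The FPKM step that 1 read makes, taken over 5667 single-transcript genes, gave the depth. PUMILIO elements were searched in the longest 3′ UTR per gene (GENCODE M21), motifs in RefSeq promoters. Alternatives were pseudocounts of 0.01 and 1, no filter or one at 5 FPKM, TPM scaling, quantile normalization, no variance trend, a replicate block, and leaving out each library. The fits were tested on simulated data with no shift or shifts of at least 1 on the log2 scale, so the recovery of smaller changes was not tested. Python 3.11.15 with pandas 2.3.3 was used.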

Additional observations from a re-analysis of the deposited data

How the results depend on the processing

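The absence of a called *Nduf* gene between genotypes, in brain, in spleen and for the interaction, held under every alternative run (smallest adjusted p 0.449, 0.094 and 0.107). The median fold change lay between -0.15 and 0.05 in brain, between -0.23 and -0.04 in spleen, between 0.41 and 0.64 for *Norad*+/+ brain against spleen and between -0.04 and 0.19 for the interaction when 1 library was left out, and relative to all genes between -0.16 and 0.02, -0.19 and -0.04, 0.63 and 0.83, and -0.07 and 0.13. Between tissues, 11 to 24 genes were higher and 0 to 2 lower without 1 library. The 20 higher and 1 lower became 32 and 5 in the *Norad*-/- libraries and 31 and 0 without both *Norad*+/+ libraries numbered 3. The 1 lower gene became 0 after rescaling to TPM, and 2 with a pseudocount of 0.01. A filter at 5 FPKM also gave 0, but *Ndufab1* lay below that filter and was not tested there. Without *Norad*+/+ library 3, 17 of 45 genes turned sign in brain and 11 in spleen. Among *Ndufs7* and the genes named for the smallest p, signs turned under any setting in brain for *Ndufa4* (-0.0086 to 0.245 without 1 library) and in spleen for *Ndufb11* (-0.10 to 0.40), *Ndufa6* (-0.063 to 0.165), *Ndufaf3* (-0.18 to 0.19, and -0.0018 with a pseudocount of 1), *Ndufa11* (-0.74 to 0.83) and *Ndufs7* (-0.22 to 0.14, 0.0055 with quantile normalization and 0.0709 on the TPM scale). Over all genes, leaving out 1 library gave 0 to 3 higher and 1 to 12 lower in brain (0 and 2 with all libraries), 0 to 17 and 1 to 76 in spleen (1 and 3), and 0 to 113 and 0 to 17 for the interaction (1 and 1). With the other settings these counts stayed between 0 and 4, and a filter at 5 FPKM gave 3343 genes higher in *Norad*+/+ brain than spleen, against 5032. The causes were not tested. Same-numbered libraries did not deviate together throughout (correlations 0.06 to 0.11 in brain, -0.15 to 0.34 in spleen), although in brain 6 of 6 correlated best with their own number. With the number as a replicate block, 0 *Nduf* genes passed between genotypes, as without it, and 25 were higher and 1 lower between tissues, 19 of the 20 among them.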
